A study of Homo sapiens with 6 samples.

Results

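The methionine cycle was described through 9 genes, MAT2A, MAT2B, AHCY, AHCYL1, AHCYL2, MTR, MTRR, MTAP and CBS, chosen by symbol as enzymes of methionine and homocysteine metabolism and their close relatives. All 9 were found among the 17862 genes listed, and all 9 were among the 13710 that passed the filter on low counts. The samples were SCC-9 cells, an established human cell line from a squamous carcinoma of the tongue, kept with 10% serum and 400 ng/mL hydrocortisone. In the first group the cells carried plasmids with a short hairpin RNA against MTHFD2 (shMTHFD2, 3 libraries), and in the other a control hairpin (shNC, 3 libraries). Both groups were otherwise the same line in the same medium. Neither the hairpin sequences nor the clonality of the cells is stated in the labels. The wording differs between the design text, which speaks of knock-out, and the treatment label, which speaks of knockdown by hairpin plasmids. Replicates are called biological, 3 per condition, without saying how the cultures were kept apart, so every p-value here reflects only variation among these 6 libraries.

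The cycle makes S-adenosylmethionine (SAM), the methyl donor of the cell, from methionine and ATP. After the methyl group is passed on, S-adenosylhomocysteine is left and is split to homocysteine, which is either methylated back to methionine with a folate-borne methyl group or drawn off towards cysteine. MTHFD2, the targeted gene, is a mitochondrial enzyme of the folate pathway that supplies carbon units to this and other reactions, so the comparison asks how transcripts of the methionine cycle stood when MTHFD2 was reduced.

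The MAT2A transcript carries a known regulatory element, a set of hairpins in its 3′ UTR that the RNA methyltransferase METTL16 binds and that link MAT2A RNA to the SAM level. They are shown because MAT2A had the largest difference among the 9 genes. The 9-base cores TACAGAGAA and TACAGAAAA were searched on the transcript strand of the longest 3′ UTR per protein-coding gene in GENCODE 29. The MAT2A 3′ UTR (1508 bases, chromosome 2) held 6 of them, 5 of the first spelling and 1 of the second. The sites are given 5′ to 3′ with the core in capitals, and start at bases 1351, 2138, 2323, 2438, 2553 and 2661 of the 2819-base transcript.
MAT2A site 1: gcgtaggcTACAGAGAAgccttcaa
MAT2A site 2: tgatgtcaTACAGAGAAgtcacagg
MAT2A site 3: ggtgtagcTACAGAGAAaccagctt
MAT2A site 4: ggcgtaagTACAGAGAAgccatcac
MAT2A site 5: aggtgtccTACAGAAAAaccttggg
MAT2A site 6: tggtgtggTACAGAGAAgccagctt

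At least 1 such core was present in 4.42% of 19133 3′ UTRs, and in 4.14% of the 2825 whose length was 0.8 to 1.25 times that of the MAT2A 3′ UTR. No other gene held more than 2. The other 8 genes of the set held 0. A match is a stretch of letters and not a measured binding event.

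The promoters of the gene with the largest decrease in the estimate, MAT2A, and of the gene with the largest increase, AHCYL1, are shown for orientation, from 250 bases before to 50 bases after the RefSeq start (GRCh38.p14, plus strand; chr2:85538918-85539217 and chr1:109984515-109984814). Capitals mark matches on either strand to the E-box CACGTG, the ATF4-type start TGATGNAA, the cAMP response element TGACGTCA, the TATA box spelled TATAAA, the GC box spelled GGGCGG and the CCAAT box, with adjoining or overlapping matches merged.
MAT2A promoter: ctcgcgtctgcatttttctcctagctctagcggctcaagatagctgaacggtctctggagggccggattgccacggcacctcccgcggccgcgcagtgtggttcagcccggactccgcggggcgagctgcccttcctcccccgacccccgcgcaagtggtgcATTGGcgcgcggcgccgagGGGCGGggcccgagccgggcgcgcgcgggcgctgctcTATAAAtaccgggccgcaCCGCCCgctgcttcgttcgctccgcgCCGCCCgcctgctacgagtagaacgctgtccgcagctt
AHCYL1 promoter: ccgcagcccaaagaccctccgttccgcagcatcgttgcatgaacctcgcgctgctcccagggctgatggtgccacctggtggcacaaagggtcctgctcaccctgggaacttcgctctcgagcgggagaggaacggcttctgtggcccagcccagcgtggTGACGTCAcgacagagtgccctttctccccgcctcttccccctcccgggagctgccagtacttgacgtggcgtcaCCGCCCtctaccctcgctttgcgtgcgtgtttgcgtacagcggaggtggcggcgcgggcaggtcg

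The printed MAT2A window held 1 TATAAA, 3 GGGCGG and 1 CCAAT, and the printed AHCYL1 window 1 TGACGTCA and 1 GGGCGG. For each gene the first window listed was printed. AHCYL1 also had TATAAA and CCAAT matches, in windows that are not printed. Over all 35116 promoter windows, TATAAA was present in 11.5%, GGGCGG in 45%, CCAAT in 34.6% and TGACGTCA in 1.85%. The E-box CACGTG (7.26% of all windows) was in 0 of the 21 windows listed for 8 of the 9 genes, and TGATGNAA, the start of the element bound by ATF4 with C/EBP partners, was in 1 of the 21, an AHCYL2 window (3.62% of all). MTRR had no window in that table.

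The libraries held 18676999 to 19838989 estimated read counts. Log2 CPM of pairs of libraries correlated across genes at 0.958 to 0.984 within shMTHFD2 and 0.992 to 0.994 within shNC, so the knockdown libraries differed more among themselves, and results are also given with each library left out. Levels are given as TPM, which is per length and can be set side by side between genes, or as CPM. CPM are counts scaled to the library total times a TMM normalization factor, and compare the same gene between libraries. The factors of replicates 1, 2 and 3 were 1.014, 1.012 and 1.02 in shMTHFD2 and 0.9863, 0.973 and 0.995 in shNC. Fold changes are shMTHFD2 over shNC on the log2 scale with the standard error (SE) of the fit and a 95% confidence interval. Adjusted p-values are from edgeR's quasi-likelihood test with Benjamini-Hochberg adjustment over all 13710 genes, and a gene is said to have risen or fallen, or to be called, where that value was under 0.05. The targeted gene MTHFD2 was at 46.9, 35.7 and 65.8 CPM in shMTHFD2 replicates 1, 2 and 3, against 190, 200 and 182 CPM in shNC (log2 -1.95, SE 0.21, edgeR adjusted p = 0.00924). All 3 shMTHFD2 libraries were far below the controls. Without shMTHFD2 replicate 1 or any 1 control, MTHFD2 was not called (edgeR adjusted p 0.0668 to 0.0918), with estimates of -1.99 to -1.90. Few genes of any kind were called in these 4 fits. The shares were 0.194% without shMTHFD2 replicate 1, and 0.00716%, 0.00716% and 0.0358% without shNC replicates 1, 2 and 3. These shares apply wherever a call is said below to end without 1 of these libraries. Squamous markers were abundant, with 8503 to 10569 summed TPM over 8 genes in shMTHFD2 and 9170 to 10138 in shNC. Defining markers of liver, of muscle and of endothelium each summed to at most 0.62 TPM in any library. Fibroblast markers summed to 12.7 to 24.1 TPM in shMTHFD2 and 6.03 to 8.65 TPM in shNC, mainly COL1A1, and leukocyte markers to 129 to 193 TPM in shMTHFD2 and 124 to 136 TPM in shNC. The leukocyte sum was almost all CD68, a lysosomal protein that is not confined to leukocytes (128.5, 175 and 192 TPM in shMTHFD2 and 123, 127 and 134 TPM in shNC; log2 0.31, SE 0.15, edgeR adjusted p = 0.205). The defining leukocyte gene PTPRC had 5.88 to 8.99 counts per library in shMTHFD2 and 9.31 to 13.2 in shNC. The part of these markers in the results below was not tested. Fewer cells of a type and less RNA per cell cannot be told apart in such bulk samples.

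Of the 9 genes, 0 rose and 0 fell by edgeR with all 6 libraries, where 5.43% of all tested genes were called (2.97% higher and 2.47% lower). At an unadjusted p under 0.05, 2 of the 9 were lower, MAT2A and MTRR, where 28.7% of all genes passed (14.1% lower). DESeq2 called 1 of the 9, MAT2A, against 14.5% of all genes, and limma-voom called 0, against 5.06%. With edgeR, 0 of the 9 were called without shMTHFD2 replicate 3, where 26.3% of all genes were, and 2 of the 9, MAT2A and MTRR, without shMTHFD2 replicate 2, where 14.2% were. With shMTHFD2 replicate 1 or shNC replicate 1, 2 or 3 left out 0 were called, beside 0.194%, 0.00716%, 0.00716% and 0.0358% of all genes. The count was also 0 with the replicate block (0.117% of all genes), DESeq2's size factors (5.2%), total counts (4.95%), no filter (3.65%), limma on log2(FPKM + 1) or log2(FPKM + 0.1) (4.79% and 4.77%) and CBS summed with CBSL (5.43%). The estimates ran from -0.65 for MAT2A to 0.16 for AHCYL1 on the log2 scale, with a median of -0.17, beside 0.01 over all tested genes. Of the 9 estimates 7 were negative, as were 6716 of those of all 13710 tested genes. In CPM the groups did not overlap for 5 of the 9 genes, 4 lower and 1 higher in shMTHFD2, where 37.8% of all genes did not overlap (19.7% lower and 18.1% higher).

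**Figure D1:**
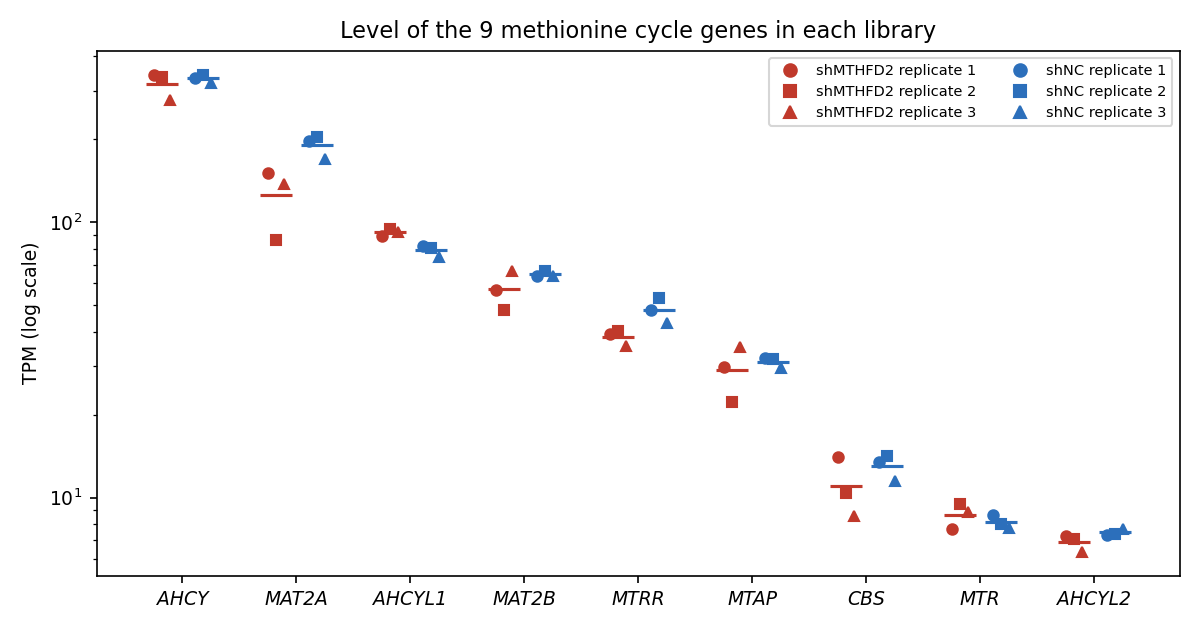
TPM (log axis) of each gene in each library, genes ordered by their shNC mean, with bars at group means (n = 3 each); symbols give the replicate number. AHCY leads in every library at 276 to 343 TPM, and MAT2A is lower in all 3 shMTHFD2 libraries, most in replicate 2 at 86.4 TPM.

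**Figure D2:**
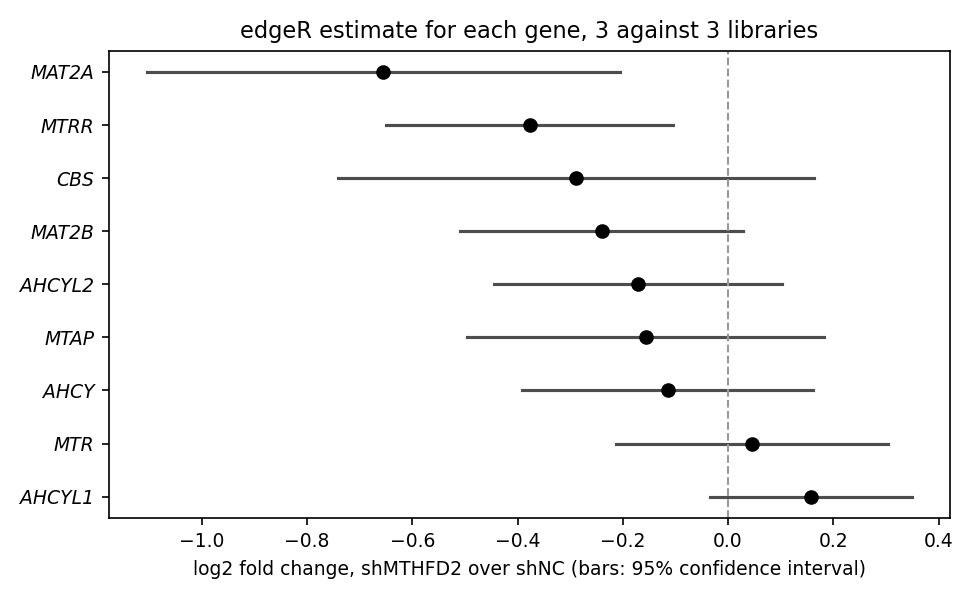
The edgeR log2 fold change of each gene, shMTHFD2 over shNC, as a point with its 95% confidence interval. The intervals of MAT2A (-1.10 to -0.21) and MTRR (-0.65 to -0.10) lie below 0 before adjustment over all genes, and the other 7 span 0.

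MAT2A (Entrez Gene 4144) encodes the catalytic subunit of the SAM synthetase found in most tissues outside the liver. It was at 204, 119 and 178 CPM in shMTHFD2 replicates 1, 2 and 3, against 268, 282 and 238 CPM in shNC replicates 1, 2 and 3. All 3 knockdown values lay below all 3 control values, and replicate 2 was the lowest, at 45.1% of the control mean, against 77.6% and 67.8% for replicates 1 and 3. The mean was 167 ± 43.8 CPM in shMTHFD2 and 263 ± 22.2 CPM in shNC (SD, n = 3 each). The log2 fold change of -0.65 (SE 0.19, 95% interval -1.10 to -0.21) had an adjusted p of 0.0851 by edgeR and did not pass. Without shMTHFD2 replicate 2, the library with the lowest MAT2A, the estimate was closer to 0 at -0.44 (SE 0.10) but MAT2A fell, with an edgeR adjusted p of 0.0266, where 14.2% of all genes were called. DESeq2 gave -0.65 and an adjusted p of 0.0229. Over the other 5 omissions of a library the estimate was -0.83 to -0.59 with adjusted p-values of 0.0602 to 0.315.

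The liver isoenzyme gene MAT1A was at 0.03 to 0.13 TPM in shMTHFD2 and 0 to 0.03 TPM in shNC, with 1 to 4 and 0 to 1 counts per library, so almost all SAM synthetase transcript was MAT2A. MAT2B (Entrez Gene 27430), the regulatory subunit that binds the MAT2A protein, was at 55.9, 48.2 and 62.9 CPM in shMTHFD2, against 63.7, 68.1 and 65.4 CPM in shNC. The groups did not overlap in CPM, but in TPM shMTHFD2 replicate 3, at 66.4, lay above 2 of the 3 controls. Its log2 fold change was -0.24 (SE 0.12, 95% interval -0.51 to 0.03, edgeR adjusted p = 0.213). The TPM ratio of MAT2A to MAT2B was 2.67, 1.80 and 2.08 in shMTHFD2 and 3.08, 3.05 and 2.67 in shNC. The mean log2 ratio differed by -0.44 (exact two-sided permutation p = 0.2 over 3 against 3 libraries, adjusted p = 0.333 over 5 ratios); such a design cannot give a p below 0.1.

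**Figure D3:**
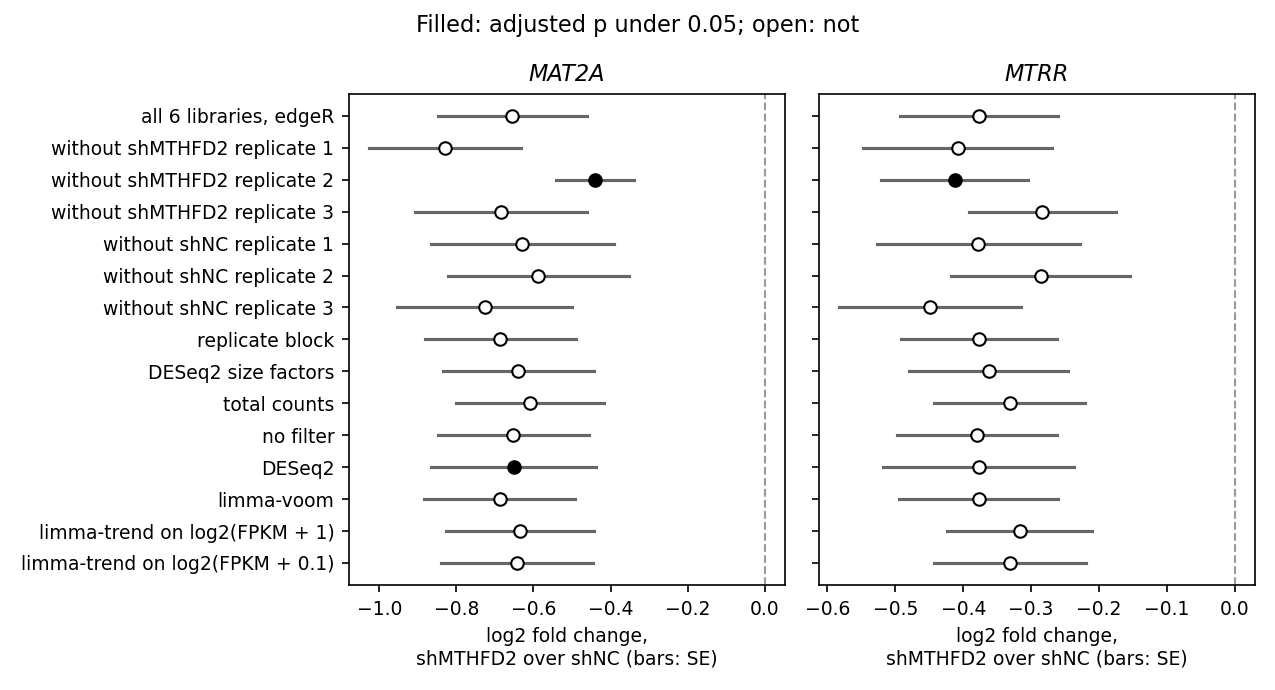
Log2 fold change of MAT2A (left) and MTRR (right), shMTHFD2 over shNC, with SE, under each way of fitting; filled points have an adjusted p under 0.05. All 15 estimates of each gene are negative, and the filled points are the fit without shMTHFD2 replicate 2 for both genes and DESeq2 for MAT2A.

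Genes that act on the MAT2A transcript were not called. METTL16, the methyltransferase of the hairpins shown above, was at 30.3, 39.4 and 30.8 CPM in shMTHFD2 and 39.8, 38.8 and 34.6 CPM in shNC (log2 -0.17, SE 0.13, edgeR adjusted p = 0.412); it was chosen after its values were seen. The list held METTL16, the m6A reader YTHDC1 and the 3′ end processing factors NUDT21 and CPSF6. Of these, 0 of 4 were called by edgeR, DESeq2 or limma-voom, against 5.43%, 14.5% and 5.06% of all genes. With 4 genes a count of 0 lies near these shares. Of the 4, 1 was lower at an unadjusted p under 0.05, where 14.1% of all genes were lower. CPSF6 had the smallest p of the 4, at 83.2 ± 8.86 CPM in shMTHFD2 and 102 ± 9.62 CPM in shNC (log2 -0.29, SE 0.12, adjusted p = 0.156). The counts are per gene, so introns kept in MAT2A RNA, which METTL16 is known to influence, were not measured. Exons of MAT2A share 558 bases on the opposite strand with GGCX, the vitamin K-dependent carboxylase. GGCX was at 43.1, 76.5 and 47.3 CPM in shMTHFD2 and 39.9, 41.3 and 42.2 CPM in shNC (log2 0.44, edgeR adjusted p = 0.215). How strand was used in counting is not stated in the labels, and the part of GGCX reads in the MAT2A counts was not tested.

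The hydrolase step was the most highly expressed. AHCY (Entrez Gene 191), which splits S-adenosylhomocysteine to homocysteine and adenosine, was at 338, 341 and 265 CPM in shMTHFD2, against 339, 351 and 332 CPM in shNC. AHCY shares 139 exon bases on the same strand with the annotated transcript AL035458.2, and the part of shared reads was not tested. Replicates 1 and 2 of shMTHFD2 were within the range of the controls and replicate 3 was below it. The log2 fold change of -0.11 (SE 0.12, edgeR adjusted p = 0.537) had a 95% interval of -0.39 to 0.16, or 0.763- to 1.12-fold. AHCYL1 (Entrez Gene 10768), also called IRBIT, is a relative of AHCY that binds the inositol trisphosphate (IP3) receptor. It was at 89.1, 94.1 and 91.7 TPM in shMTHFD2, against 81.9, 80.6 and 74.8 TPM in shNC. It was the only member whose knockdown values were all above the controls, by a small margin (log2 0.16, SE 0.08, 95% interval -0.03 to 0.35, edgeR adjusted p = 0.242). AHCYL2 (Entrez Gene 23382), the third of the family, was at 17.2, 17.5 and 14.7 CPM in shMTHFD2 and 18.0, 18.2 and 19.4 CPM in shNC (log2 -0.17, SE 0.12, edgeR adjusted p = 0.357).

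AHCY therefore made up most of the family's transcript, with a TPM ratio to AHCYL1 plus AHCYL2 of 3.53, 3.32 and 2.82 in shMTHFD2 and 3.75, 3.89 and 3.87 in shNC. All 3 knockdown ratios were below the controls. The log2 ratio differed by -0.26, with an exact two-sided permutation p of 0.1, the smallest possible for 3 against 3 (adjusted p = 0.25 over 5 ratios). Among the IP3 receptors and transporters that AHCYL1 is known to bind, edgeR and limma-voom called 0 of 5 tested and DESeq2 1. Of all genes they called 5.43%, 5.06% and 14.5%. As higher, 1 of the 5 passed an unadjusted p of 0.05, where 28.7% of all genes passed in either direction. The median log2 was 0.19. ITPR3, an IP3 receptor, had the smallest p, at 478 ± 36.8 CPM in shMTHFD2 and 362 ± 18.8 CPM in shNC (log2 0.40, SE 0.10, edgeR adjusted p = 0.057). It passed with total counts (adjusted p = 0.043), with DESeq2 (0.00424), with limma on log2(FPKM + 1) and log2(FPKM + 0.1) (0.0405 and 0.0413), and without shMTHFD2 replicate 2 or 3 (0.0288 and 0.0144). Of all genes, 14.5% were called with DESeq2, and 14.2% and 26.3% without shMTHFD2 replicate 2 or 3. Enzymes that handle adenosine, the other product of AHCY, also had 0 of 5 called by edgeR, DESeq2 and limma-voom. The shares over all genes were 5.43%, 14.5% and 5.06%. The count at an unadjusted p under 0.05 was 0 too, where 28.7% of all genes passed. The purine nucleoside phosphorylase PNP came nearest (log2 -0.23, SE 0.10, edgeR adjusted p = 0.178), at 51.8 ± 4.95 CPM in shMTHFD2 and 60.7 ± 0.90 CPM in shNC.

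**Figure D4:**
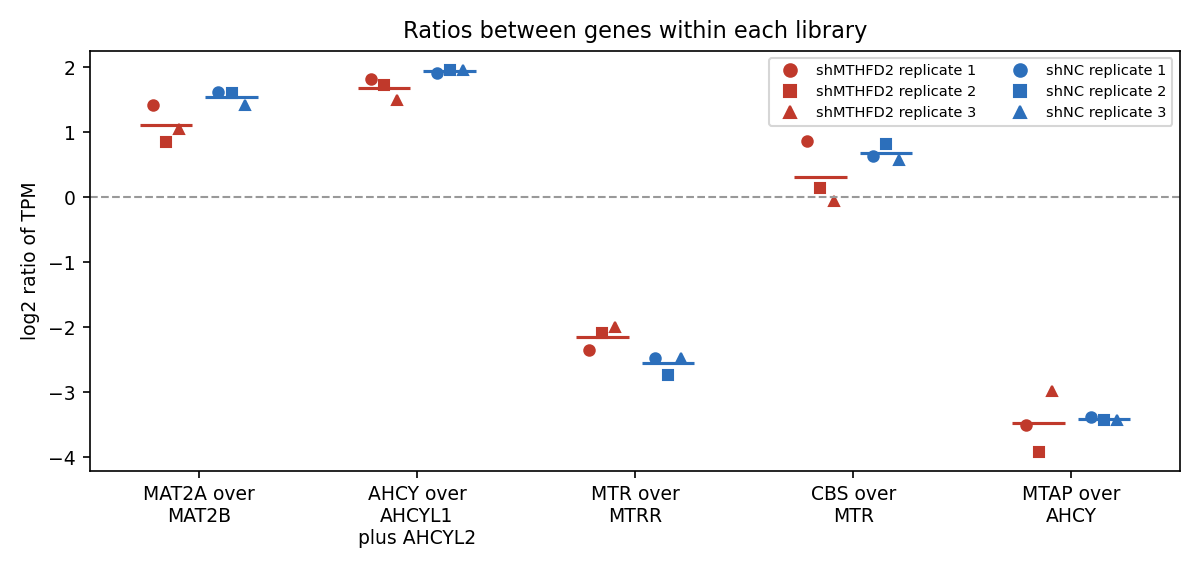
Log2 TPM ratios between genes within each library (bars: means, n = 3 each; symbols: replicate number). The ratios of AHCY to its relatives and of MTR to MTRR separate the 3 shMTHFD2 from the 3 shNC libraries, while the other 3 ratios overlap. The ratio of CBS to MTR uses the CBS row without CBSL.

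Homocysteine is methylated back to methionine by methionine synthase, MTR, which uses a cobalamin cofactor and the methyl group of methyltetrahydrofolate. MTR (Entrez Gene 4548) was at 37.3, 46.1 and 42.3 CPM in shMTHFD2, against 42.7, 40.2 and 39.0 CPM in shNC. The groups overlapped, and the log2 fold change of 0.05 (SE 0.11, edgeR adjusted p = 0.806) had a 95% interval of -0.21 to 0.30. MTRR (Entrez Gene 4552), the reductase that restores the cobalamin of MTR, was at 61.1, 63.7 and 52.7 CPM in shMTHFD2, against 75.8, 85.0 and 69.7 CPM in shNC. All knockdown values were below all controls. The log2 fold change was -0.38 (SE 0.12, 95% interval -0.65 to -0.10), with an edgeR adjusted p of 0.0954. Without shMTHFD2 replicate 2 MTRR fell (log2 -0.41, edgeR adjusted p = 0.0392), while over the other 5 omissions the adjusted p was 0.0889 to 0.352, and DESeq2 gave 0.0508.

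There was less MTR than MTRR transcript, with log2 TPM ratios of -2.35, -2.09 and -1.998 in shMTHFD2 and -2.47, -2.73 and -2.47 in shNC. The mean log2 ratio was higher in shMTHFD2 by 0.41, with groups that did not overlap (exact two-sided permutation p = 0.1, the smallest possible; adjusted p = 0.25 over 5 ratios). MTRR shares 305 exon bases on the opposite strand with C5orf49, which was not analysed here, and 100 with FASTKD3, a mitochondrial RNA-binding protein, which was at 10.4 ± 1.35 CPM in shMTHFD2 and 13.8 ± 1.24 CPM in shNC (log2 -0.41, edgeR adjusted p = 0.125), and the part of shared reads was not tested.

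Of 9 tested genes of cobalamin uptake, handling and use, edgeR called 1 higher and 0 lower, against 2.97% and 2.47% of all genes. The median log2 was 0.00. MMAA, MMAB and MMUT, which belong to the mitochondrial use of cobalamin, are in the list, so it does not describe supply to MTR alone. DESeq2 called 2 higher and 1 lower, where 14.5% of all genes were called. Without shMTHFD2 replicate 2 or 3 edgeR called 2 higher, beside 14.2% and 26.3% of all genes. LMBRD1, which takes part in the export of cobalamin from the lysosome, rose, at 57.9, 59.6 and 54.1 CPM in shMTHFD2 and 40.3, 42.2 and 44.4 CPM in shNC (log2 0.43, SE 0.09, edgeR adjusted p = 0.0435). The call of LMBRD1 ended with no filter (adjusted p = 0.053), with the replicate block (0.162) and without shMTHFD2 replicate 1 or any 1 shNC library (0.134 to 0.225). Its lysosomal partner ABCD4 was at 21.8, 36.1 and 20.3 CPM in shMTHFD2 and 16.4, 16.2 and 16.4 CPM in shNC (log2 0.67, SE 0.22, edgeR adjusted p = 0.107). MMACHC, which processes the vitamin in the cytosol, was at 11.1 ± 0.83 CPM in shMTHFD2 and 15.4 ± 1.34 CPM in shNC (log2 -0.47, SE 0.13, edgeR adjusted p = 0.07). ABCD4 passed as higher with DESeq2 (adjusted p = 0.0362) and without shMTHFD2 replicate 2 or 3 (0.0369 and 0.0275 by edgeR), and MMACHC as lower with DESeq2 (0.0357). Both genes were chosen after their values were seen. Of 8 folate genes that supply the methyl group, all 8 had a negative estimate, and edgeR called MTHFD2 alone. Over all 13710 tested genes, 6716 estimates were negative and 2.47% were called lower. The 8 negative estimates, the call and the list's median log2 of -0.35 include the targeted gene.

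CBS (Entrez Gene 875) joins homocysteine to serine and so opens the path to cysteine. It was at 16.6, 12.5 and 9.98 CPM in shMTHFD2, against 16.2, 17.2 and 14.4 CPM in shNC. The groups overlapped, since shMTHFD2 replicate 1 was at the level of the controls (log2 -0.29, SE 0.19, 95% interval -0.74 to 0.16, edgeR adjusted p = 0.348). These values are uncertain, because the table also lists CBSL (Entrez Gene 102724560), which the RefSeq gene table of GRCh38.p14 gives only as a synonym of CBS. The CBS counts were fractional, as were those of CBSL, but their sums were whole in all 6 libraries within 0.001. The sums were 459, 276 and 331 counts in shMTHFD2 and 502, 481 and 501 counts in shNC. CBSL held 28.8%, 14.3% and 39.8% of these sums in shMTHFD2 and 38.6%, 31.3% and 44.5% in shNC, so the share assigned to it varied between libraries of a group.

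With both rows added, an alternative chosen after seeing the data, the level was 19.5, 12.2 and 14.3 TPM in shMTHFD2, against 21.6, 20.4 and 20.6 TPM in shNC, and the groups no longer overlapped. The log2 fold change was then -0.50 (SE 0.18), further from 0 than for CBS alone, with an edgeR adjusted p of 0.122. Of 7 tested genes of transsulfuration and sulfide oxidation, edgeR and limma-voom called 0 and DESeq2 1, against 5.43%, 5.06% and 14.5% of all genes. At an unadjusted p under 0.05, 2 were higher and 0 lower, where 28.7% of all genes passed, and the median log2 was 0.16. The sulfide oxidase SQOR had the smallest p, at 152, 152 and 161 CPM in shMTHFD2 and 109.9, 102 and 129.7 CPM in shNC (log2 0.44, SE 0.11, edgeR adjusted p = 0.0581; 0.00986 by DESeq2). SQOR also passed without shMTHFD2 replicate 2 or 3 (0.0232 and 0.0395 by edgeR), where 14.2% and 26.3% of all genes were called. CTH, which acts directly after CBS, was at 5.43 ± 1.86 CPM in shMTHFD2 and 6.39 ± 0.98 CPM in shNC (log2 -0.24, edgeR adjusted p = 0.574; chosen after its values were seen). The TPM ratio of CBS to MTR, the genes of the draw-off and of the return to methionine, was 1.83, 1.10 and 0.966 in shMTHFD2 and 1.55, 1.77 and 1.48 in shNC (log2 difference -0.36, exact two-sided permutation p = 0.4, adjusted p = 0.5 over 5 ratios). This ratio used the uncertain CBS row without CBSL, and the ratio with both rows added was not computed. It compares transcripts and does not measure the flow of homocysteine.

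MTAP (Entrez Gene 4507) cleaves methylthioadenosine, the by-product of polyamine synthesis, and so starts the salvage of methionine. The gene lies beside CDKN2A and is lost with it in many tumours, but here MTAP was transcribed, with 1248 to 1959 counts per library in shMTHFD2 and 1744 to 1834 in shNC. CDKN2A, by contrast, had 0 to 5.28 counts per library in shMTHFD2 and 0 to 2.86 in shNC, at most 0.33 TPM. MTAP was at 87.0, 66.1 and 98.2 CPM in shMTHFD2, against 94.8, 95.1 and 90.2 CPM in shNC. The knockdown libraries lay on both sides of the controls, with replicates 1 and 2 below and replicate 3 above (log2 -0.16, SE 0.15, 95% interval -0.50 to 0.18, edgeR adjusted p = 0.493). The ratio of MTAP to AHCY was 0.0877, 0.0664 and 0.127 in shMTHFD2 and 0.0959, 0.0926 and 0.0928 in shNC (exact two-sided permutation p = 0.7, adjusted p = 0.7 over 5 ratios). Exons of MTAP share bases with 3 other annotated genes, and the part of their reads in the MTAP counts was not tested.

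Of 7 genes of the polyamine branch, both synthesis and breakdown, edgeR called 3 lower and 0 higher, against 2.47% and 2.97% of all genes. The median log2 was -0.31. This list, like the others, was written with earlier results of these data known, so the share over all genes is no test of it. The SAM decarboxylase AMD1, which commits SAM to this branch, fell to 79.0, 57.4 and 82.9 CPM in shMTHFD2, against 124, 143 and 117 CPM in shNC (log2 -0.81, SE 0.16, edgeR adjusted p = 0.0342). The spermidine synthase SRM, which releases methylthioadenosine, fell to 67.9, 104 and 66.1 CPM in shMTHFD2, against 157, 143 and 148 CPM in shNC (log2 -0.91, SE 0.18, edgeR adjusted p = 0.0358), and ODC1 fell by 1.51 on the log2 scale. The spermine synthase SMS, which releases it too, was at 236 ± 17.4 CPM in shMTHFD2 and 242 ± 5.26 CPM in shNC (log2 -0.04, edgeR adjusted p = 0.79; chosen after its values were seen). Of the 6 salvage genes after MTAP, edgeR called 1 lower and 0 higher, against the same shares of all genes, with a median log2 of -0.31. ADI1, the dioxygenase late in the pathway, fell to 30.1, 28.1 and 30.7 CPM in shMTHFD2, against 42.9, 40.3 and 38.2 CPM in shNC (log2 -0.45, SE 0.10, edgeR adjusted p = 0.0461). The call of ADI1 ended with DESeq2's size factors (adjusted p = 0.0507), with total counts (0.0597), with no filter (0.0583) and with the replicate block (0.163). It also ended without shMTHFD2 replicate 1 or any 1 shNC library (0.13 to 0.246). The calls of AMD1, SRM and ODC1 ended without any 1 of the same 4 libraries (0.105 to 0.2) and with the replicate block (0.12, 0.102 and 0.101).

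Of 8 amino acid transporters listed under methionine transport, edgeR called 3 lower and 0 higher, against 2.47% and 2.97% of all genes. The median log2 was -0.52. This list too was written with earlier results known, so these shares are no test of it. DESeq2 called 4 lower and 1 higher, where it called 14.5% of all genes. Methionine uptake was not measured. SLC7A5 and SLC3A2, the chains of the large neutral amino acid exchanger, fell by 1.28 and 0.98 on the log2 scale, and SLC1A5 fell by 1.19. The calls ended without shMTHFD2 replicate 1 or any 1 shNC library (edgeR adjusted p = 0.0732 to 0.133). With the replicate block SLC7A5, SLC3A2 and SLC1A5 did not pass either (edgeR adjusted p = 0.0795, 0.0746 and 0.053). SLC7A8, another light chain that pairs with SLC3A2, was at 196, 189.8 and 115 CPM in shMTHFD2 and 96.8, 96.3 and 83.4 CPM in shNC (log2 0.86, SE 0.20, edgeR adjusted p = 0.052; chosen after its values were seen). SLC7A8 passed as higher with DESeq2 (adjusted p = 0.0016), total counts (0.0471), no filter (0.0488) and without shMTHFD2 replicate 3 (0.00327), and over the other alternatives its adjusted p was 0.052 to 0.221. Of 9 tested methyltransferases, most of them users of SAM, edgeR and limma-voom called 0 and DESeq2 1, against 5.43%, 5.06% and 14.5% of all genes. At an unadjusted p under 0.05, 1 was higher and 2 lower, where 28.7% of all genes passed, and the median was 0.03. ICMT, which methylates prenylated proteins, had the smallest p, at 112, 90.9 and 142 CPM in shMTHFD2 and 173, 175 and 153 CPM in shNC (log2 -0.54, SE 0.16, edgeR adjusted p = 0.0891; 0.0313 by DESeq2). ICMT also passed without shMTHFD2 replicate 2 or 3 (0.049 and 0.0145 by edgeR), where 14.2% and 26.3% of all genes were called. Of 4 tested genes near MTAP on chromosome 9, edgeR called 1 higher, where 2.97% of all genes were. This gene, MLLT3, rose to 5.27 ± 0.81 CPM in shMTHFD2, against 2.76 ± 0.10 CPM in shNC (log2 0.93, SE 0.20, edgeR adjusted p = 0.0425). MLLT3 did not pass without shMTHFD2 replicate 1 or any 1 shNC library (0.102 to 0.218), nor with the replicate block (0.145).

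**Figure D5:**
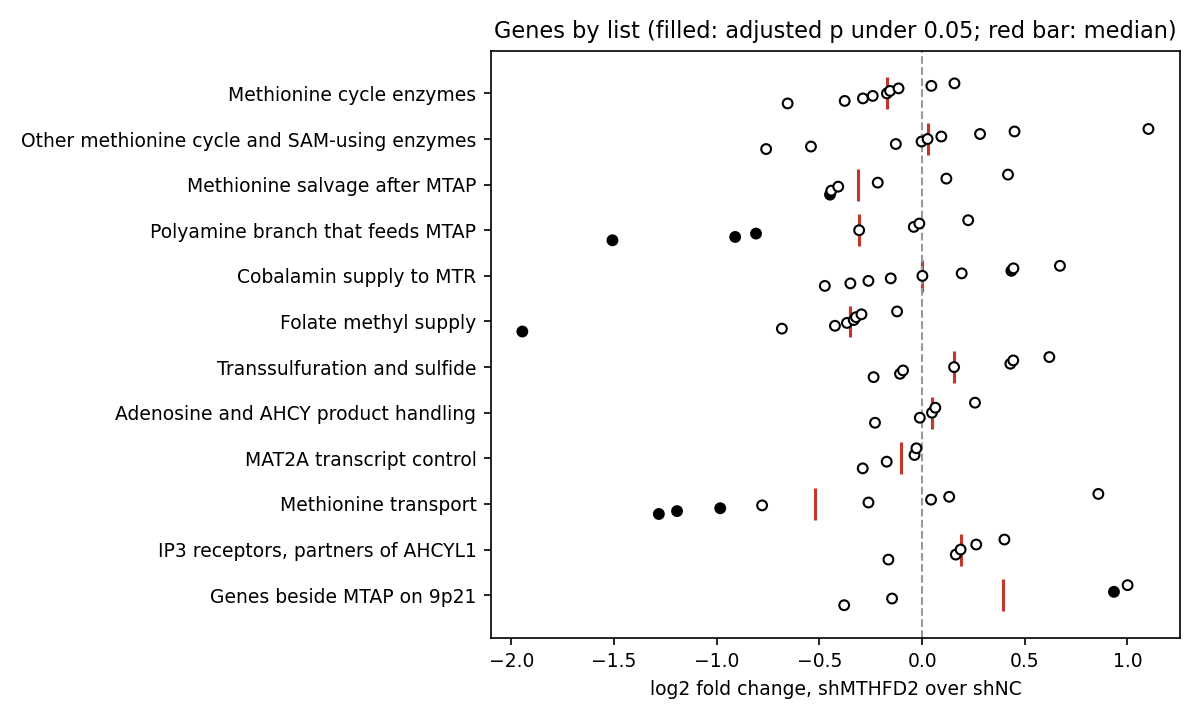
Log2 fold change, shMTHFD2 over shNC, of each tested gene in the methionine cycle (top) and in 11 lists around it; filled points have an edgeR adjusted p under 0.05 and red bars are list medians. The 9 methionine cycle genes are all open, and of 72 related genes 2 are filled on the higher and 8 on the lower side. Over all tested genes, 2.97% were called higher and 2.47% lower. The targeted gene MTHFD2 is 1 of the filled genes on the lower side. The lists were written with earlier results of these data known, so these shares are no test of them.

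The order of levels in TPM was the same in both groups, from AHCY through MAT2A, AHCYL1, MAT2B, MTRR, MTAP, CBS and MTR to AHCYL2. AHCY averaged 317 ± 35.6 TPM in shMTHFD2 and 332 ± 11.7 TPM in shNC, and AHCYL2, the lowest, 6.89 ± 0.47 TPM in shMTHFD2 and 7.48 ± 0.20 TPM in shNC (SD, n = 3 each). In shMTHFD2 the ranges overlapped between 2 pairs of neighbours, MAT2A with AHCYL1 and CBS with MTR, and in shNC between 0. With CBSL added to CBS, its range in shMTHFD2 no longer reached that of MTR. MAT2A averaged 125 ± 34.3 TPM in shMTHFD2 and 190 ± 17.8 TPM in shNC, and AHCYL1 91.7 ± 2.52 TPM in shMTHFD2 and 79.1 ± 3.74 TPM in shNC. In shMTHFD2 replicate 2 the order of these 2 was turned round, with MAT2A at 86.4 and AHCYL1 at 94.1 TPM. Among 8071 genes with a mean of at least 20 CPM, the closest to MAT2A in their course over the 6 libraries were ZNF367, FJX1 and VEGFC, by a root mean square difference of centred log2 CPM of 0.0278, 0.0571 and 0.0617. For AHCY they were AHSA1, ATP5PF and GART, at 0.0286, 0.0316 and 0.032.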

How the data were processed

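The main measure is the authors' estimated count per gene, in part fractional, from the table's count columns, per the file headers. Beside it the authors deposited TPM and FPKM, both per gene length, and a normalized read count, here a signal, which the values show to be close to the count over 1 factor per library. Strand use and annotation are not stated. The genome build in the submitters' processing notes is mm10, a mouse build, although the samples are human, so the files' coordinates are left out. Group averages in the table were not used.

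Counts were rounded to whole numbers, filtered with filterByExpr, scaled by TMM and tested by edgeR 4.0.16's quasi-likelihood test (robust) in R 4.3.3, shMTHFD2 over shNC with no covariate, adjusted by Benjamini-Hochberg over 13710 genes at 0.05. SE was taken as |log2 fold change| over √F. Alternatives used DESeq2 1.42.0, limma 3.58.1 (voom, and trend on log2(FPKM + 1) and log2(FPKM + 0.1) for genes of at least 1 FPKM in 3 libraries). Replicate libraries differed by more than sampling noise (chi-square per degree of freedom 3.5 to 77.4). A listed 0 allows up to 3 counts (0.15 to 0.159 CPM), which covers counting error alone.

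The 9 genes and all lists were chosen with earlier results of these data known. Named were the 9 genes, MTHFD2 and, per list, up to 4 called genes or the gene with the smallest p. MAT1A, CDKN2A and CBSL, and GGCX and FASTKD3 for their shared exons, were added, and others are marked. Sites and promoters came from GENCODE 29 and RefSeq. Python 3.11.15, SciPy 1.17.1 and matplotlib 3.10.9 were also used.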

Additional observations from a re-analysis of the deposited data

How the results depend on the processing

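The count of methionine cycle genes called was 0 with all 6 libraries, 0 to 2 over the omissions of 1 library, 1 with DESeq2, and 0 with the replicate block, DESeq2's size factors, total counts, no filter, limma-voom, both FPKM fits and the summed CBS rows. All genes called numbered 745, from 1 to 3651 over the omissions, 16 with the replicate block and 1983 with DESeq2. Related genes called numbered 10, the targeted MTHFD2 among them, from 0 to 26 over the omissions and 18 with DESeq2. With the replicate block the number was 1, MTHFD2 itself. No pairing by replicate number is stated in the labels. Deviations from the group means of same-numbered libraries correlated at 0.00074, -0.237 and -0.187 across genes, and 0 of 3 shMTHFD2 libraries correlated best with its own number. Such correlations cannot show how the cultures were handled.

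Of 127 alternative values of the 9 genes, 121 kept direction and side of the threshold. The sign turned for AHCY without shMTHFD2 replicate 3 (0.012, range over the omissions -0.176 to 0.012) and, without shMTHFD2 replicate 2, for MTR (-0.0103, range -0.0103 to 0.116) and MTAP (0.0071, range -0.268 to 0.0071); the cause was not tested. Over the omissions the log2 ratio differences were -0.60 to -0.31 for MAT2A to MAT2B, -0.33 to -0.17 for AHCY to its relatives, 0.32 to 0.51 for MTR to MTRR and -0.63 to -0.17 for CBS to MTR. MTAP to AHCY was at -0.05 with all libraries and ran from -0.30 to 0.17, at 0.17 without shMTHFD2 replicate 2. With FPKM or normalized read counts in place of TPM the 5 differences kept their direction.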
